A study of Mus musculus with 6 samples.

Results

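The libraries from 1w and 2w testis were compared gene by gene, first for expression and then for the choice of poly(A) site (pA). Testis RNA of FVB mice, an inbred strain, aged 1 week (1w) to 6 weeks (6w) was profiled by 3'READS, which sequences the last bases of polyadenylated transcripts and so gives both the abundance of transcripts and the position of their pAs. Each week was represented by 1 library, with no treatment or allele named in the labels, which also do not say how many animals went into a library. Reads of a gene were the sum over its pAs in the last exon, and values are given either as reads or scaled to RPM, the reads expected if the library held 1000000 at pAs assigned to 1 gene. The 1w library held 3831545 such reads and the 2w library 3497870. Where a pair of values is given without ages, the first is 1w and the second 2w. Of 16197 genes with a last-exon pA, 11000 had at least 20 reads over both libraries and are described here. Exactly 20 reads were found for 78 of them, and 88 genes with 19 were left out.

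Spermatogenesis starts in mice shortly after birth and its first wave is nearly synchronous. In the first postnatal week the seminiferous cords hold spermatogonia that have just resumed division among Sertoli cells that are themselves still dividing. Retinoic acid then drives spermatogonia to differentiate and to enter meiosis, in which homologous chromosomes are paired by the synaptonemal complex and recombine. Meanwhile Sertoli cells stop dividing and build the blood-testis barrier, and fetal Leydig cells give way to adult ones in the interstitium.

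With 1 library per week there was no replicate, so no test was made. A gene is counted as higher or lower where its RPM differed by at least 2-fold, and each fold is followed by its 95% counting interval, exact and conditional on the sum of both counts. These intervals, and the limits that a count of 0 allows, cover counting error only, since reads copied by PCR were not collapsed by molecular identifiers and the spread between animals is unknown. By this rule 797 genes (7.25%) were higher at 2w and 686 genes (6.24%) were lower. The whole interval lay beyond 2-fold for 322 of the genes that were higher and 149 of those that were lower. A gene with few reads in 1 library passed the minimum through its reads in the other, which favours a count as higher or lower. These percentages of higher and lower genes are the background for expression counts at the read minimum stated above. They do not apply to site usage or antisense transcripts, which have their own, or to counts with a minimum of 100 reads. With at least 100 reads over both libraries, 325 of 7344 genes were higher and 305 lower. How many members of each list passed that minimum is not given. The median over all 11000 genes was -0.02 on the log2 scale of 2w over 1w, and its quartiles were -0.39 and 0.35. At least 4-fold higher were 250 genes, and at least 4-fold lower 74.

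Defining markers of the testis were present at both ages, with 529 and 793 reads for the germ cell helicase Ddx4, 382 and 203 reads for Sox9 of Sertoli cells and 520 and 375 reads for Cyp17a1 of Leydig cells. Both libraries also held transcripts that stood apart. Some of the values that they may touch are marked where they occur, but a value without a mark may be touched as well. At 1w, before spermatids exist in the first wave, the spermatid genes Tnp1 and Prm1, which encode a transition protein and a protamine of condensing chromatin, had 1174 and 796 reads. At 2w they had 162 and 108 reads, against 738205 and 520357 at 6w. Together they stood at 0.157% of their 6w reads at 1w and at 0.0215% at 2w, and over 27 genes with at least 4000 reads at 6w and over 20 times as many there as at 3w the median share was 0.159% at 1w and 0.0288% at 2w. The spermatid list as a whole, with 23 of its 25 genes in the table, summed to 667 and 232 RPM, and 4 of the 5 members that passed the minimum were lower at 2w, namely Tnp1, Prm1, Prm2 and Tnp2. When every gene's 1w and 2w reads were lowered by these shares of its 6w reads, an alternative chosen after seeing the data, 792 genes were higher and 662 lower.

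At 2w, in turn, some genes of muscle, epididymis and skin appeared that were nearly absent at 1w. So did the liver gene Fgb and the airway gene Scgb1a1, described below, while other liver and muscle genes stayed under the read minimum. Acta1, the skeletal muscle actin, had 2 and 1030 reads, then 5103 at 3w, but 3 at 6w. Spink8 and Crisp1, both abundant in the epididymis, had 0 and 375 reads and 1 and 325 reads. The epidermal keratins Krt1 and Krt5 had 1 and 263 reads and 0 and 73 reads. A list of genes of tissues outside the testis had 21 of its 23 members in the table, and their sum was 13.8 and 554 RPM. Those that passed the minimum were Acta1, Crisp1, Spink8, Krt5, Defb1 and Pate4, which had at most 2 reads at 1w and so passed through their 2w reads alone, and Cyp21a1. Their values are a description, and the adrenal steroid hydroxylase Cyp21a1 was lower, with 18 and 3 reads. The other 14 stayed under the minimum, among them the liver genes Alb (0 and 8 reads) and Ttr (1 and 3) and the muscle genes Ckm (5 and 10) and Myh4 (0 and 1). The epididymal genes Lcn5 (0 and 1), Rnase10 (0 and 0) and Adam7 (0 and 9) were under it too. In all, 51 genes had at most 3 reads at 1w and at least 25 at 2w, and 41 of them had fewer reads at 4w than at 2w. Among single pAs, 97 of 15863 last-exon pAs with at least 10 reads at 2w had none at 1w, and 58 of these had none at 6w either. Conversely 19 of 16213 with at least 10 reads at 1w had none at 2w. The 58 include pAs of widely expressed genes such as Vim and Fth1. The part of these transcripts in the results below was not tested.

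**Figure D1:**
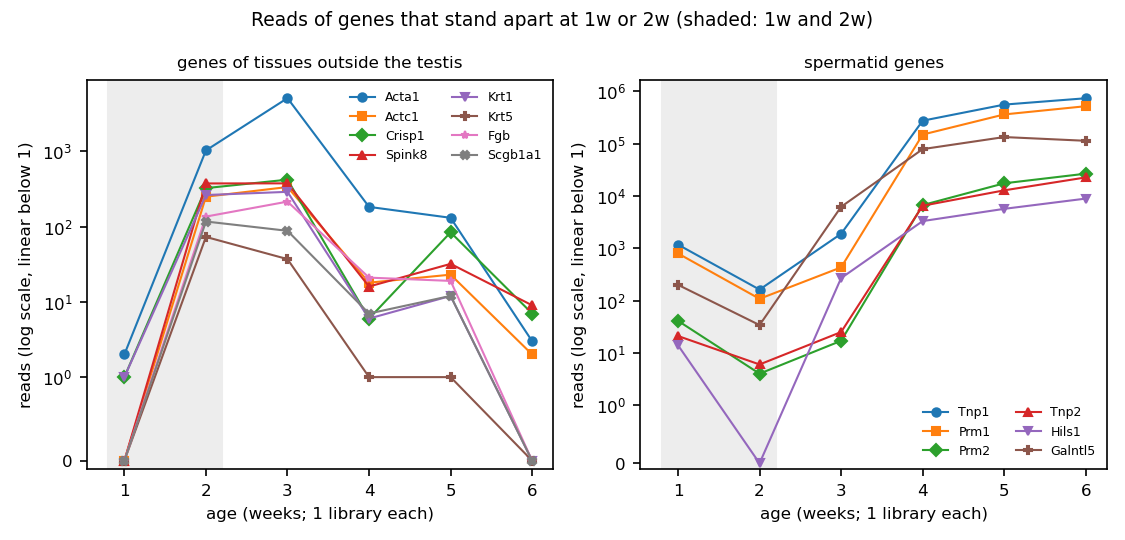
Reads per library (log scale, linear below 1) against age in weeks for genes of tissues outside the testis (left) and spermatid genes (right), with 1 library per point and the 1w and 2w libraries shaded. The genes on the left have 0 to 2 reads at 1w and 73 to 1030 at 2w, and the spermatid genes have more reads at 1w than at 2w and most again at 4w to 6w.

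Of the meiotic lists, those of the synaptonemal complex and of later spermatocytes had most of the members that passed the minimum at least 2-fold higher at 2w, while in the others most stayed within 2-fold. Of the lists for meiotic entry, the synaptonemal complex, recombination, the piRNA pathway and later spermatocytes, none held a member that was at least 2-fold lower, and in the synaptonemal complex list all 13 members that passed the minimum lay above 0. As the RNA came from the whole tissue, more meiotic cells and more RNA per cell cannot be told apart here, nor can fewer cells of a type and less RNA per cell in what follows.

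**Figure D2:**
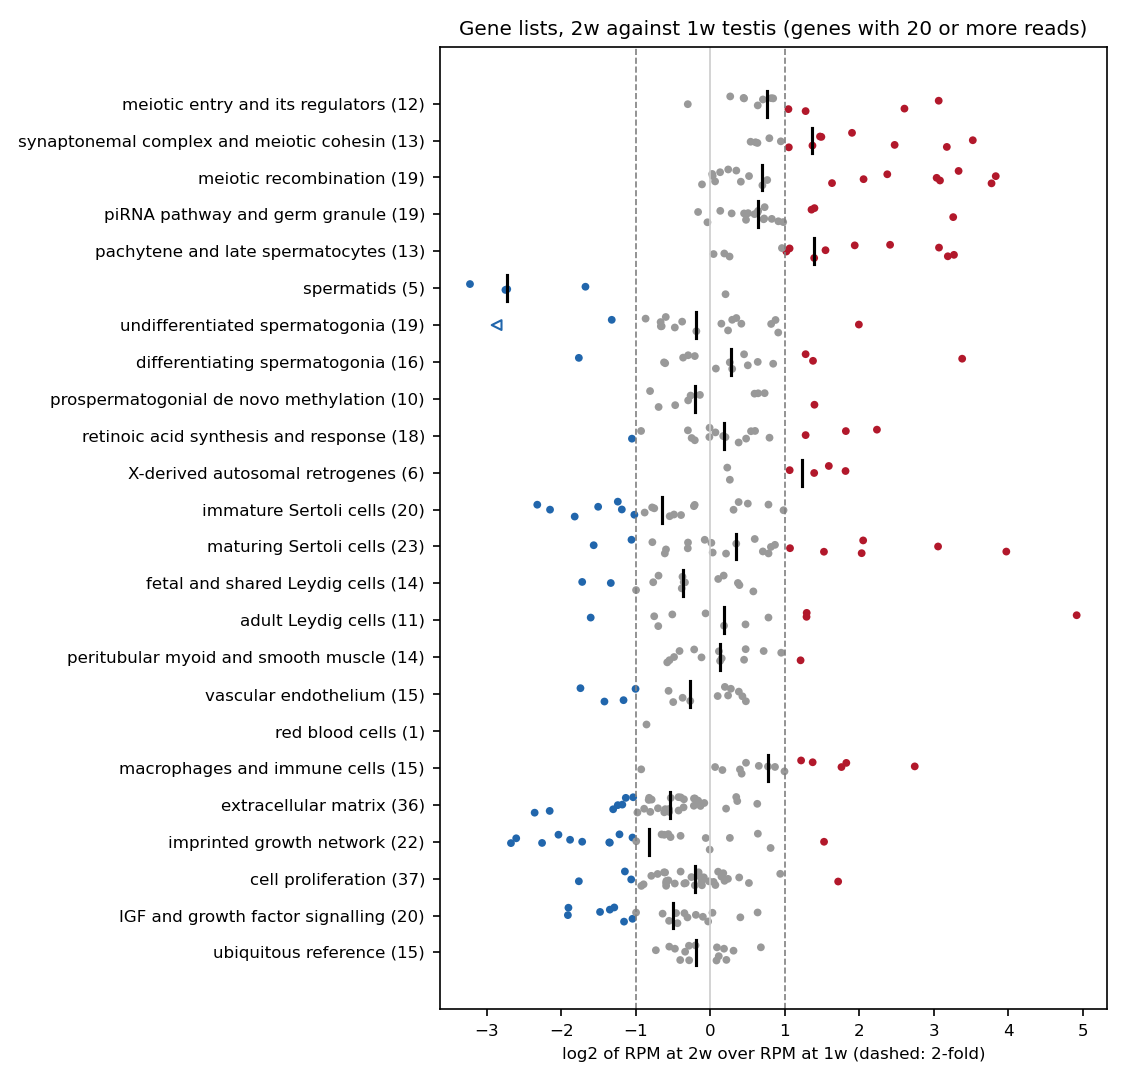
Each point is the log2 ratio of RPM at 2w over RPM at 1w of 1 gene with at least 20 reads, by gene list with the number of such genes in parentheses; red and blue points are at least 2-fold higher or lower, black bars are medians, and an open triangle is the bound of a gene without reads at 2w. Medians of the meiotic lists lie between 0.64 and 1.39, those of the immature Sertoli, extracellular matrix, imprinted and growth factor lists between -0.82 and -0.51. The list of tissues outside the testis is left out.

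Stra8 is induced by retinoic acid and required for meiotic initiation. It stood at 29.0 and 70.3 RPM, 2.43-fold higher (1.93 to 3.07), and at 17.2 RPM at 3w. Gm1564, the older symbol of Meioc, whose product protects the meiotic programme in early spermatocytes, stood at 8.87 and 54.0 RPM, 6.09-fold higher (4.21 to 9.05). Rec8, the meiotic cohesin subunit that holds sister chromatids together, had 63 and 119 reads, 2.07-fold higher (1.51 to 2.85), and Tex101, which encodes a surface glycoprotein of germ cells, stood at 8.09 and 67.8 RPM, 8.37-fold higher (5.74 to 12.6). These were the 4 of 12 members of the list of meiotic entry that were higher, where 7.25% of all genes were. Its median was 0.76. Dmrt1, which keeps spermatogonia out of meiosis, was the only member of this list below 0, with 136 and 110.1 RPM. Dazl, the RNA-binding factor that makes germ cells competent for meiosis, stood at 201 and 274 RPM, 1.36-fold higher (1.24 to 1.50), and the list's partner of Meioc, Ythdc2, had 81 and 89 reads.

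Sycp3, a core protein of the chromosome axis, gained more reads than any other of the 11000 genes. It had 4944 and 40763 reads, or 0.129% and 1.17% of the library, 9.03-fold higher (8.77 to 9.30), and after 1290.3 and 11654 RPM it stood at 13187 RPM at 3w. The gene lies at chr10:87922314-87935981 (mm9, plus strand), and its reads came from a pA 278 nt past the stop codon. The 30 bases that end at this pA are shown because so large a share of the 2w library stopped there, with the poly(A) signal in capitals:
Sycp3 pA, chr10:87935952-87935981 (mm9, plus strand): gattgtgtcAATAAAgatgatttaaattta

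The other axis and synaptonemal genes lay above 0 as well, most by smaller factors. Sycp2, the partner of Sycp3 on the axis, stood at 62.6 and 234 RPM, 3.74-fold higher (3.23 to 4.33), and Sycp1, the transverse filament that joins the axes, at 21.7 and 56.0 RPM, 2.59-fold higher (1.99 to 3.39). Syce3 of the central element was 5.56-fold higher (4.14 to 7.59) with 54 and 274 reads, while its neighbours Syce1 and Syce2 stood at 1.93-fold higher (1.70 to 2.19) and 1.52-fold higher (1.44 to 1.61). The meiosis-specific cohesin subunits Smc1b and Stag3 were 2.81-fold higher (2.24 to 3.55) and 2.08-fold higher (1.88 to 2.29). Ccdc79, the older symbol of Terb1, which ties telomeres to the nuclear envelope, had 2 and 21 reads, 11.5-fold higher (2.81 to 101). In all 8 of 13 members were higher, with a median of 1.37, while 4 more were under the minimum and 4 were not in the table. Of the 8, Ccdc79 passed the minimum through its 2w reads, which favours a count as higher.

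Within the recombination list several genes that act only in meiosis were severalfold higher, and others stayed within 2-fold. Cntd1, Msh4, Msh5 and Hfm1 act in turning recombination intermediates into crossovers. Cntd1 had 14 and 182 reads, 14.2-fold higher (8.27 to 26.6). Msh5 stood at 15.9 and 135 RPM, 8.48-fold higher (6.48 to 11.3), and its partner Msh4 had 4 and 50 reads, 13.7-fold higher (5.03 to 52.2). The helicase gene Hfm1 had 5 and 46 reads, 10.1-fold higher (4.02 to 32.5). Prdm9, the histone methyltransferase that places recombination hotspots, stood at 11.0 and 56.9 RPM, 5.19-fold higher (3.71 to 7.42), and then at 18.1 RPM at 3w. Dmc1, the meiotic strand-exchange recombinase, had 25 and 95 reads, 4.16-fold higher (2.66 to 6.75). Brca1, which also acts in repair in dividing cells, was 1.10-fold higher (0.697 to 1.72), and Trip13, an ATPase that remodels chromosome axes, 1.08-fold lower (0.918 to 1.27). In total 8 of 19 members were higher with a list median of 0.70, but with a minimum of 100 reads the count was 4. Members with few reads at 1w, such as Msh4 and Hfm1, passed through their 2w reads, which favours a count as higher. Spo11, which makes the breaks that start recombination, stayed under the minimum with 2 and 12 reads.

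**Figure D3:**
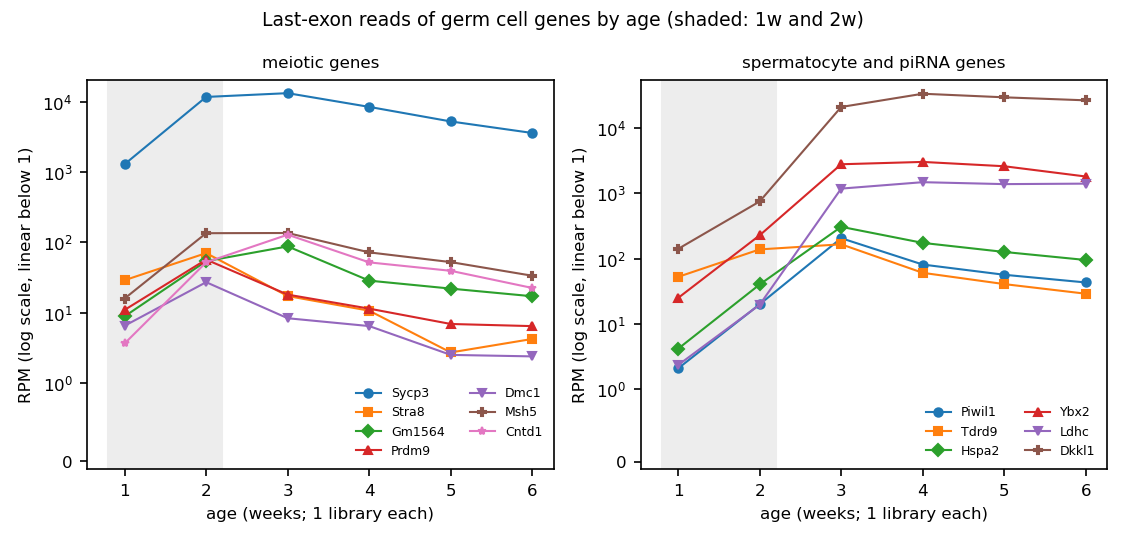
RPM (log scale, linear below 1) of meiotic genes (left) and of spermatocyte and piRNA genes (right) against age in weeks, with 1 library per point and 1w and 2w shaded. Stra8, Prdm9 and Dmc1 are highest at 2w among the 6 libraries, while Piwil1, Hspa2, Ybx2, Ldhc and Dkkl1 are higher still at 3w.

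The piRNA pathway, in which PIWI proteins loaded with small RNAs silence transposons, was already expressed at 1w. Piwil2 and Ddx4, which act from the fetal germ line on, were 1.66-fold higher (1.46 to 1.89) and 1.64-fold higher (1.47 to 1.84). Piwil1, the PIWI protein of pachytene spermatocytes, had 8 and 70 reads, 9.58-fold higher (4.61 to 23.1), and went on to 742 reads at 3w. The Tudor-domain genes Tdrd9 and Tdrd12 were 2.64-fold higher (2.23 to 3.12) and 2.56-fold higher (1.79 to 3.74), and Tdrd1 was 1.97-fold higher (1.63 to 2.39). Piwil1, Tdrd9 and Tdrd12 made 3 of 19 members higher, with a list median of 0.64. Of these 3, Piwil1 passed the minimum through its 2w reads.

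Markers of pachytene and later spermatocytes had few reads, and 9 of the 13 that passed the minimum were higher, while 14 of 27 did not reach 20 reads. Members with few reads at 1w, such as Ldhc and Hspa2, passed through their 2w reads, which favours a count as higher. With a minimum of 100 reads 4 were higher. Hspa2, the heat shock protein of spermatocytes, had 16 and 141 reads, 9.65-fold higher (5.74 to 17.4). Ybx2, which stores messenger RNA in germ cells, stood at 25.1 and 228 RPM, 9.12-fold higher (7.37 to 11.4), and Ldhc, the germ cell lactate dehydrogenase, had 9 and 69 reads and 4264 at 3w. Dkkl1, which becomes one of the acrosome's transcripts, had 542 and 2636 reads, 5.33-fold higher (4.86 to 5.85). Dkkl1 is abundant at 6w, and the share at which Prm1 and Tnp1 stood at 1w corresponds to 227 reads of it. Whether this share applies to Dkkl1 was not tested. With reads lowered by these shares its log2 ratio was 3.18 against 2.41 as counted. For Spata16 the 1w reads were 11 against 6.09 at that share, and the ratio moved from 1.06 to 2.17. Pgk2, a glycolytic gene that replaces its silenced X-linked parent, had 4 and 5 reads.

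Among 11 retrogenes that copy X-linked parents and serve germ cells when the X chromosome is silent, 6 passed the minimum and 4 were higher, or 2 with a minimum of 100 reads. Rbmxl2, an RNA-binding splicing factor, had 56 and 107 reads, 2.09-fold higher (1.50 to 2.95), and Pdha2 had 10 and 24 reads, 2.63-fold higher (1.21 to 6.16). The call for Cstf2t, which encodes the germ cell form of the cleavage stimulation factor subunit of the polyadenylation machinery, with 230 and 739 reads, rested on 1 pA that is described with the site usage. On the X chromosome itself the median of 400 genes was -0.17 against -0.02 over 10595 autosomal genes. Both tails were wider there: 11.2% of X-linked genes were higher and 8.50% lower, against 7.10% and 6.15% of autosomal genes.

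The promoters of the meiotic, synaptonemal, recombination and piRNA genes were read for motifs, to set the members that were higher beside those that were not. In the 250 bases before the start in RefSeq (GRCm38.p6), CACGTG, the E-box bound by Myc, Max and related factors, which reads the same on both strands, was found in 7 of the 23 list members that were higher. Among members that were not, it was found in 10 of the 30 with a matched promoter. It stood in 10.3% of the promoters of 8855 matched genes with 20 reads, in 6.86% of all 27025 promoters and in 11.1% of all genes that were higher. GGCGGGA, the E2F motif, read on both strands, was in 4 of the 23, in 5 of the 30 and in 21.7% of the genes with 20 reads. TGACGTCA, the cyclic AMP response element, also the same on both strands, was in none of the 23, in 1 of the 30 and in 3.22% of the genes with 20 reads. Stretches of 30 bases around the E-box, in capitals, are shown for the axis gene with the largest gain and for other members of the same lists:
Sycp3 promoter, chr10:88459523-88459552 (GRCm38.p6, plus strand): CACGTGagaacgggcatggagCACGTGcta
Sycp1 promoter, chr3:102936176-102936205 (GRCm38.p6, minus strand): agagaacccggCACGTGggaagggaaatct
Stag3 promoter, chr5:138280328-138280357 (GRCm38.p6, plus strand): gcgctggagccCACGTGacaggactgcaca
Tdrd9 promoter, chr12:111971453-111971482 (GRCm38.p6, plus strand): cacgaggctccCACGTGcatgcagggcctg
Piwil1 promoter, chr5:128736081-128736110 (GRCm38.p6, plus strand): tcagggcccagCACGTGtccacctcgccgt
Cntd1 promoter, chr11:101279005-101279034 (GRCm38.p6, plus strand): gagctgtagtcCACGTGgagttttctgggt
Sycp3 held the motif at 64 and 43 bases before its start, Piwil1 at 179 and 154, and Tdrd9 at 165 and 95, of which the printed stretch shows the nearer one for Piwil1 and Tdrd9. A match is a description of the letters and not of binding.

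Of the 20 genes with the largest increases, taken by the bound of the interval nearest to 1 among genes with at least 100 reads, 8 had at most 2 reads at 1w. These were Acta1, Actc1, Crisp1, Spink8, Cuzd1, Krt1, Fgb and Scgb1a1. Actc1, the cardiac actin, Cuzd1, the fibrinogen chain gene Fgb and the airway secretoglobin Scgb1a1 had 250, 180, 136 and 117 reads at 2w and none at 1w, which makes them at least 91.3-, 65.7-, 49.7- and 42.7-fold higher with 3 counts as the limit of a count of 0. The other 12 were higher from 3 to 125 reads at 1w. Mtl5, a testis metallothionein-like gene, stood at 7.83 and 308 RPM, 39.4-fold higher (27.4 to 58.7). Rsph1, a radial spoke protein of cilia and flagella, stood at 17.2 and 405 RPM, 23.5-fold higher (18.3 to 30.5), and then at 4869.7 RPM at 3w. Ly6k, which encodes a surface partner of Tex101, had 12 and 386 reads, 35.2-fold higher (19.9 to 68.8). The gap junction gene Gja6, the exchange factor gene Mcf2 and the proprotein convertase inhibitor gene Pcsk1n are X-linked and were 22.1-fold higher (13.8 to 37.7), 37.4-fold higher (20.1 to 78.6) and 23.0-fold higher (13.7 to 41.6). The predicted genes 1700016M24Rik, 1700102P08Rik, 4930528F23Rik and Gm4980 were 81.1-fold higher (43.8 to 169.7), 21.0-fold higher (17.6 to 25.4), 29.4-fold higher (21.6 to 41.3) and 29.5-fold higher (20.8 to 43.5). The others were 4922505G16Rik with 3 and 118 reads and 1700008K24Rik with 22 and 410 reads.

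Most markers of undifferentiated spermatogonia, which include the stem cells, stayed within 2-fold, and 2 of 19 were lower and 1 higher. Of these 19, 9 lay above 0 and 10 below, and the 25 members in the table summed to 2574 and 2908 RPM. T (Brachyury), a transcription factor of stem spermatogonia, had 24 and 0 reads, at least 7.30-fold lower, and Eomes, another T-box factor of these cells, had 74 and 27 reads, 2.50-fold lower (1.59 to 4.04). Ret, the GDNF receptor of the stem cells, stood at 139 and 88.6 RPM, 1.57-fold lower (1.36 to 1.81), and Sall4 and Zbtb16 had 168 and 84 reads and 59 and 34 reads. Nanos2 and Shisa6, also of stem spermatogonia, were under the minimum with 9 and 2 reads and 12 and 0 reads. By contrast Utf1, a chromatin factor of pluripotent and early germ cells, stood at 23.8 and 94.6 RPM, 3.98-fold higher (3.15 to 5.08).

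The differentiating spermatogonia list had 3 of 16 members higher and 1 lower. Prss50, a testis protease gene, stood at 21.9 and 228 RPM, 10.4-fold higher (8.31 to 13.2), and the X-linked homeobox gene Esx1 at 27.9 and 72.6 RPM, 2.60-fold higher (2.07 to 3.29). The third was Stra8. Kit, the receptor that marks differentiation, had only 20 and 12 reads, and cyclin D2 (Ccnd2) was lower with 67 and 18 reads, 3.40-fold lower (2.00 to 6.08). Genes for methylation of the germ line genome mostly stayed within 2-fold. Dnmt1, the maintenance methyltransferase, stood at 813 and 503 RPM, 1.62-fold lower (1.53 to 1.72), and the de novo enzyme Dnmt3a was 1.39-fold lower (1.13 to 1.70). Of 10 members only Tdrd9 was higher.

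Of 18 genes of retinoic acid handling, 3 were higher and 1 was lower. Cyp26a1, which breaks retinoic acid down and is itself induced by it, stood at 17.2 and 81.2 RPM, 4.71-fold higher (3.59 to 6.26), and at 10.6 RPM at 3w. Rbp4, the retinol carrier, had 18 and 58 reads, 3.53-fold higher (2.05 to 6.37). Stra6, a retinol transporter, stood at 155 and 74.9 RPM, 2.07-fold lower (1.79 to 2.41), and Rara, a retinoic acid receptor, at 216 and 113 RPM, 1.90-fold lower (1.69 to 2.15). Synthesis enzymes differed less. Aldh1a1 was 1.23-fold lower (1.12 to 1.35), Aldh1a2 1.73-fold higher (1.46 to 2.06) and Rdh10 1.01-fold lower (0.872 to 1.16).

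Several Sertoli cell genes of the immature state were lower at 2w and several of the mature state higher. Amh, the hormone that immature Sertoli cells secrete to regress the female duct, stood at 76.7 and 21.7 RPM, 3.53-fold lower (2.74 to 4.61), and at 2.78 RPM at 3w. Dhh, the hedgehog ligand that Sertoli cells send to Leydig and peritubular cells, stood at 4432 and 1945 RPM, 2.28-fold lower (2.21 to 2.34). Gata4 and Sox8, transcription factors of the fetal and neonatal testis, were 2.84-fold lower (2.44 to 3.31) and 4.44-fold lower (2.53 to 8.34). The protease inhibitor gene Serpine2 stood at 107 and 21.4 RPM, 5.00-fold lower (3.90 to 6.49), and Sox9, the factor that makes the cell a Sertoli cell, was 1.72-fold lower (1.45 to 2.05). In all 7 of 20 members were lower and none higher, with a median of -0.65. Vnn1 and Mro were the rest of the 7. Gdnf, the Sertoli cell factor that maintains stem spermatogonia, is not on this list and stood at 224 and 59.8 RPM, 3.74-fold lower (3.21 to 4.38). Other members of the list lay above 0, as Amhr2, the receptor of Amh, was 1.72-fold higher (1.66 to 1.78) and the nuclear receptor gene Nr0b1 1.98-fold higher (1.74 to 2.25), which passed 2-fold under TMM scaling.

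The list of maturing Sertoli cells had 6 of 23 members higher and 2 lower, and with a minimum of 100 reads 2 higher and 2 lower. Tsx, an X-linked gene expressed in Sertoli and germ cells, had 73 and 1047 reads, 15.7-fold higher (12.4 to 20.2). Cldn3, a claudin of the blood-testis barrier, had 10 and 76 reads, 8.32-fold higher (4.29 to 18.1), and Cldn11, the barrier's main claudin, stood at 854 and 1468 RPM, 1.72-fold higher (1.65 to 1.80). The secreted chaperone clusterin (Clu) stood at 2231 and 4072 RPM, 1.83-fold higher (1.78 to 1.88), and Gata1, a factor of postnatal Sertoli cells, had 35 and 92 reads, 2.88-fold higher (1.93 to 4.38). Gja1, the gap junction protein connexin 43, was lower at 223 and 107 RPM, 2.08-fold lower (1.84 to 2.36), and so was the cystatin Cst8, 2.96-fold lower (2.51 to 3.51). Slc2a3, a glucose transporter that was higher with 15 and 56 reads, is also a spermatocyte and spermatid gene and had 1849 reads at 3w.

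Of 14 genes of fetal or both kinds of Leydig cells 2 were lower and none higher, and of 11 of adult Leydig cells 3 were higher and 1 lower. Dlk1, a marker of fetal Leydig cells and their precursors, stood at 257 and 78.0 RPM, 3.29-fold lower (2.88 to 3.78), and Thbs2, another fetal Leydig marker, had 94 and 34 reads, 2.52-fold lower (1.69 to 3.85). The enzymes of androgen synthesis shared by both generations stayed within 2-fold. Cyp11a1 was 1.30-fold lower (1.00 to 1.68), Cyp17a1 1.27-fold lower (1.11 to 1.45), Hsd3b1 1.28-fold lower (1.14 to 1.44) and Star 1.31-fold higher (1.19 to 1.44). Hsd3b6, the isoform of adult Leydig cells, had 5 and 138 reads, 30.2-fold higher (12.6 to 94.6), and 504 reads at 3w. With 5 reads at 1w it passed the minimum through its 2w reads. Hsd3b6 and Hsd3b1 are closely similar genes between which reads can be divided wrongly. Srd5a1, the 5-alpha-reductase that is high in immature adult-type Leydig cells, stood at 33.9 and 83.2 RPM, 2.45-fold higher (1.99 to 3.04), and Ephx1 had 34 and 76 reads, 2.45-fold higher (1.61 to 3.78). Hsd17b3, the last enzyme of testosterone synthesis, was under the minimum with 14 and 2 reads, and Akr1c14, which inactivates androgens, was 3.04-fold lower (1.57 to 6.37).

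**Figure D4:**
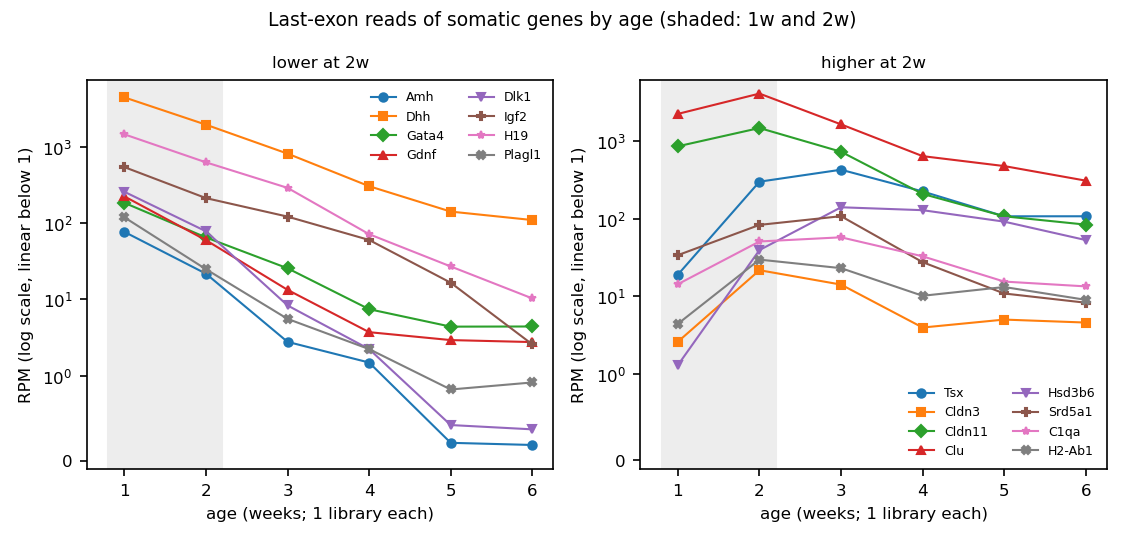
RPM (log scale, linear below 1) of somatic genes against age in weeks, with 1 library per point and 1w and 2w shaded. The genes on the left are lower at each of 2w, 3w and 4w than at the age before, and those on the right are higher at 2w than at 1w, with Tsx, Hsd3b6, Srd5a1 and C1qa higher still at 3w.

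Peritubular and smooth muscle genes mostly stayed within 2-fold, with 1 of 14 members higher and none lower. Smooth muscle actin (Acta2) stood at 1042 and 1158 RPM, 1.11-fold higher (1.06 to 1.16), and Myh11 was 1.09-fold lower (0.894 to 1.32). The 1 member that was higher was Actg2, with 61 and 129 reads, which had 1442 reads at 6w. Endothelial genes were lower in 4 of 15 cases (2 with a minimum of 100 reads) and higher in none. The junction genes Pecam1 and Cdh5 were among the 4, at 2.68-fold lower (1.46 to 5.18) and 2.00-fold lower (1.58 to 2.56). Of the 15 genes 7 lay above 0 and 8 below, and the list's median was -0.27. Macrophage and antigen-presentation genes lay mostly above 0. Of these 5 of 15 were higher and none lower, with a median of 0.77. The class II antigen gene H2-Ab1 had 17 and 104 reads, 6.70-fold higher (3.99 to 11.9), its partner H2-Aa 32 and 99 reads, and the complement gene C1qa 55 and 178 reads, 3.55-fold higher (2.61 to 4.89). The other members that were higher were Mpeg1 and Aif1. Ptprc, the pan-leukocyte marker, was under the minimum with 7 and 6 reads, and Cd74, which pairs with class II molecules, had 0 and 16 reads. Of 9 red blood cell genes in the table, only Car2 passed the minimum, with 32 and 16 reads. The globin gene Beta-s is on no list and was chosen after its values were seen. It had 89 and 374 reads over 2 pAs, a difference in the other direction. Most of this difference came from the proximal pA, with 0 and 267 reads, while the distal pA had 89 and 107.

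Most genes of the extracellular matrix lay below 0. Of 36 extracellular matrix genes 32 lay below 0 and 7 were at least 2-fold lower, with a median of -0.54. Lamb1, a laminin chain of young basement membranes, stood at 963 and 470 RPM, 2.05-fold lower (1.93 to 2.17), while Lamb2, the chain of mature ones, stood at 4108 and 6359 RPM, 1.55-fold higher (1.52 to 1.58). The proteoglycans Bgn and Vcan were 2.20-fold lower (1.99 to 2.43) and 4.46-fold lower (2.62 to 8.01), and Fbln2 was 5.13-fold lower (2.82 to 10.1). The fibrillar collagen gene Col3a1 stood at 7403 and 5512 RPM, 1.34-fold lower (1.32 to 1.37), and Col1a1 was 1.27-fold higher (1.19 to 1.37).

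The imprinted genes that promote or restrain fetal growth had 10 of 22 members lower, where 6.24% of all genes were, with a median of -0.82. Igf2, the paternally expressed growth factor, stood at 541 and 212 RPM, 2.55-fold lower (2.34 to 2.77), and H19, the maternally expressed noncoding RNA from the same domain, at 1454 and 625 RPM, 2.33-fold lower (2.22 to 2.45). Plagl1, a zinc finger factor that regulates other imprinted genes, stood at 119 and 24.9 RPM, 4.78-fold lower (3.80 to 6.09), and Mest at 191 and 51.7 RPM, 3.69-fold lower (3.13 to 4.36). The list also held Dlk1, Ndn, Igf2r, Peg12, Magel2 and Usp29 among those lower, the last 3 with 3 or 4 reads at 2w. With a minimum of 100 reads the count was 6. Peg10, a gene derived from a retrotransposon, was the exception at 38.9 and 112 RPM, 2.88-fold higher (2.38 to 3.50), and the growth inhibitor Cdkn1c was 1.56-fold higher (1.15 to 2.12).

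Growth factor genes had 7 of 20 lower and none higher. Midkine (Mdk) had 169 and 41 reads, 3.76-fold lower (2.66 to 5.43), Mycn had 110 and 36 reads, and the fetal RNA-binding protein gene Igf2bp3 had 91 and 34 reads. The receptors Igf1r and Insr were 1.14-fold lower (0.991 to 1.32) and 1.07-fold lower (0.710 to 1.62). Genes of the cell cycle mostly stayed within 2-fold, as 3 of 37 were lower (Ccnd2, Ube2c and Rrm1), Ccne2 was higher, and Mki67 and Top2a were 1.09-fold lower (0.741 to 1.59) and 1.18-fold higher (1.10 to 1.26). Of 15 genes used as references in most tissues none passed 2-fold either way, with a median of -0.20 and Actb lowest at 1.66-fold lower (1.61 to 1.71).

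The 20 genes with the largest decreases by the same rule held several of somatic cells. Hsd17b1, an estrogen-forming dehydrogenase of immature Sertoli cells, stood at 126 and 13.4 RPM, 9.40-fold lower (6.96 to 13.0), and was at 4 reads at 3w. The angiotensin receptor gene Agtr2, which is high in fetal mesenchyme, stood at 103 and 12.0 RPM, 8.56-fold lower (6.22 to 12.1). Lpcat2 had 287 and 23 reads, 11.4-fold lower (7.44 to 18.3), Adamts16 had 143 and 9 reads, 14.5-fold lower (7.43 to 32.4), and the ephrin receptor gene Epha2 had 235 and 24 reads, 8.94-fold lower (5.86 to 14.2). Sel1l3 stood at 489 and 121 RPM, 4.03-fold lower (3.63 to 4.49), and Creb5 at 186 and 48.9 RPM, 3.81-fold lower (3.22 to 4.53). The same 20 held Serpine2, Plagl1, Gdnf and Mest, already described, and the spermatid genes Prm1, Tnp1 and Galntl5, which are among the late transcripts set out above. Slc24a5, Itga4, C1qtnf3, Clca1, Epdr1 and 4833403I15Rik made up the rest.

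Site usage was compared next. For each gene the 2 last-exon pAs with most reads over all 6 libraries were taken as proximal (Prx-pA) and distal (Dis-pA). After 1 read was added to both pAs, their log2 ratio, distal to proximal, gave the relative expression (RE). The relative expression difference (RED) was RE at 2w minus RE at 1w, so that a negative RED is a shift to the Prx-pA. This gives a shorter 3'UTR where both pAs follow the same stop codon, but not always where they lie in different last exons. Over 4860 genes with at least 50 reads of both pAs in each library the median RED was -0.03, and median RE was 2.13 at 1w and 2.08 at 2w. The Dis-pA took 62.6% of all these reads at 1w and 62.0% at 2w. RED was 1 or more in 490 genes (10.1%) and -1 or less in 539 genes (11.1%). The 95% Wilson intervals of the Dis-pA share at 1w and 2w stood apart in 82 of the former and 77 of the latter. In all 293 genes had intervals apart, 151 with a higher Dis-pA share at 2w and 142 with a lower one, and the median change of share in either direction was 1.87 percentage points.

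**Figure D5:**
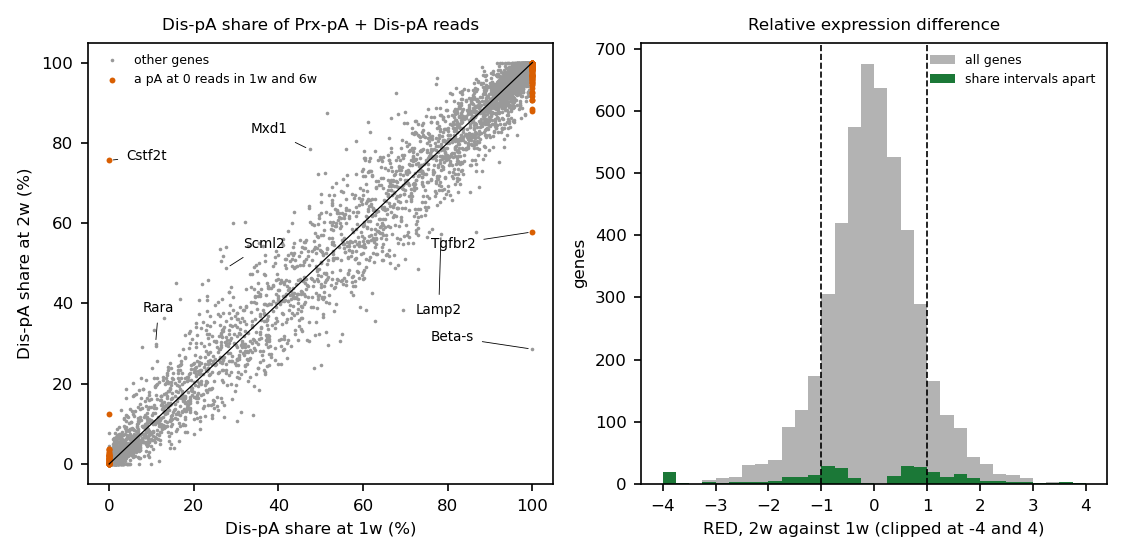
Left, the Dis-pA share of Prx-pA and Dis-pA reads (%) at 2w against 1w, 1 point per gene, with genes of which 1 pA had no read at 1w and 6w in orange; right, the number of genes by RED, with genes whose share intervals were apart in green and the dashed lines at -1 and 1. The cloud follows the diagonal, and Cstf2t, Beta-s and Tgfbr2 lie far from it.

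RED differed with the expression of the gene. Of 106 genes that were at least 2-fold higher, 31 had a RED of 1 or more and 13 of -1 or less, with a median RED of 0.47. Of 136 that were lower, 7 had a RED of 1 or more and 40 of -1 or less, with a median of -0.43, against -0.03 over the other 4618. Both measures come from the same reads, and where a pA is nearly unused RED follows the reads of the other pA, with a sign that depends on which one is unused. An example is Tnp1, which had no Prx-pA read in either library and a RED of -2.85. The Dis-pA held most of the reads in 65.9% of the 4860 genes at 1w. How far this shapes the medians of higher and lower genes was not tested. Over 5 equal groups of genes by the distance between the pAs, medians of RED lay between -0.08 and 0.01.

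The 10 largest shifts to the Prx-pA, among genes with 100 reads in each library, were all at pAs without a read at 1w and at 6w. They were Col1a1, Tpm2, Tgfbr2, Vim, Glis2, Fth1, Atp5g3, Cops3, Alad and Csnk2a1. The Prx-pA of Col1a1 had 0 and 103 reads, the Dis-pA 1403 and 1526, so that the Dis-pA share went from 100% (99.7% to 100%) to 93.7% (92.4% to 94.8%). In Tpm2, a tropomyosin of muscle, the pair of pAs lies in different last exons, 239 and 68 nt past their own stop codons, so that its shift to the Prx-pA is toward the longer 3'UTR. The proximal pA had 0 and 104 reads, then 190 at 3w. Acta1 of skeletal muscle, described above, also had its reads at 2w and 3w, and its part in this shift was not tested. In Tgfbr2, a receptor of transforming growth factor beta, the share was 100% and 57.8%, between pAs only 28 nt apart. When genes with such a pA were left out, an alternative chosen after seeing the data, 467 genes moved to the Prx-pA and 462 to the Dis-pA.

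The largest shift to the Dis-pA was in Cstf2t, at chr19:31157331-31161080 in mm9. Its Prx-pA, at the annotated end of the gene, had 230 and 180 reads, and its Dis-pA, 399 nt further on, had 0 and 559, a RED of 9.48. The same pA then had 41, 21, 26 and 0 reads at 3w to 6w. The sequences that end at the pAs of Cstf2t, Tpm2 and Col1a1 are shown because these shifts rest on single sites, with AATAAA in capitals where it is present:
Cstf2t Prx-pA, chr19:31161053-31161082 (mm9, plus strand): gaaaattaAATAAAaaggttgtataattaa
Cstf2t Dis-pA, chr19:31161452-31161481 (mm9, plus strand): aacatccaatttcggttgggaaaaaaaaaa
Tpm2 Prx-pA, chr4:43528554-43528583 (mm9, minus strand): ctacttAATAAActctgaacttggtctcca
Tpm2 Dis-pA, chr4:43527583-43527612 (mm9, minus strand): cctcgggccAATAAActgatgttactggca
Col1a1 Prx-pA, chr11:94812993-94813022 (mm9, plus strand): acagacgaacaacccaaactcaatttcccc
Col1a1 Dis-pA, chr11:94814322-94814351 (mm9, plus strand): tgattgctggAATAAAgcatgtggaaatga
The Dis-pA of Cstf2t has neither AATAAA nor ATTAAA in these bases and the genome before it ends in a run of 10 A, whereas the Prx-pA has the signal 22 nt before it. Priming within this run of A, in place of a poly(A) tail, was not tested, and the RED and the expression call of Cstf2t rest on this site. Both pAs of Tpm2 carry AATAAA, and of those of Col1a1 only the distal one. Within 40 bases AATAAA preceded 59.2% of all last-exon pAs with 10 reads at 2w and 37.9% of the 58 that were absent at 1w and 6w. Without its Dis-pA, Cstf2t would not be among the 4 retrogenes counted as higher.

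The other 9 of the 10 largest shifts to the Dis-pA concerned sites with at most 8 reads in 1 of the libraries. In the meiotic gene Tex11 the Prx-pA went from 6 reads to 0 beside 123 and 204 at the Dis-pA, and in Tdrd9 from 3 to 0 beside 199 and 486. The others were Zfp580, Crispld2, Ctns, Unc50, Bhlhe40, Setd8 and Entpd2, of which Bhlhe40 turned to -2.09 when the pAs were chosen over 1w and 2w reads. Among list members, Rara shifted with more reads behind it: its Dis-pA share went from 11.0% (9.02% to 13.3%) to 29.9% (25.6% to 34.6%), as its Prx-pA reads went from 730 to 276. Sycp1 went from 21.2% (13.7% to 31.4%) to 40.8% (33.9% to 48.0%), the cell cycle gene Cenpf from 43.7% to 62.8%, and the retrogene Nxt1 from 81% to 92.1%. In the matrix list, Col1a2 went the other way, from 97.1% (94.9% to 98.4%) to 88.8% (84.5% to 92.1%).

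The Dis-pA share was at least 20 percentage points higher at 2w in 25 genes and lower in 15. The following were chosen after these values were seen. Lamp2, a lysosomal membrane protein, had a Dis-pA share of 78.4% (76.5% to 80.3%) at 1w and 57.4% (54.7% to 60.1%) at 2w, and it went on to 11.2% at 4w. Scml2, a germ cell Polycomb protein, went from 27.7% to 48.8% and then to 68.2% at 4w. Mxd1, a repressor that pairs with Max, went from 47.4% to 78.4% but stood at 15.3% at 4w. In the globin gene Beta-s the Prx-pA, 56 nt before the Dis-pA, went from 0 reads to 267 while the Dis-pA had 89 and 107.

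Cleavage upstream of the last exon (CDS-APA), in introns or earlier exons, yields transcripts that lack the end of the coding sequence. Over 1643 genes with at least 50 reads in each library and 5 upstream reads, the median share of upstream reads was 4.55% at 1w and 5.46% at 2w and the median RED, now upstream over last exon, 0.20. RED was 1 or more in 351 genes (21.4%) and -1 or less in 164 (9.98%), and over the whole libraries intronic pAs took 2.24% and 2.54% of reads. With 5 upstream reads as the minimum, a few reads can pass these limits, as in Igf1r with 0 and 8 upstream reads and a RED of 3.49. How many of these genes had share intervals apart is not given. The largest gain, in Zfand3, came from intronic pAs that had 0 and 100 reads, then 0 at 3w, beside 196 and 204 in the last exon. The Wnt receptor gene Fzd3 went from 7 to 24 upstream reads, as its last-exon reads went from 221 to 102. Neto2 went from 3.26% to 19.8% and the cohesin regulator Pds5b from 2.49% to 12.0%, while Gas2l1 kept nearly all reads upstream at both ages. Shifts to the last exon were led by Ccdc9, Ece2, 1700102P08Rik, Masp1 and Lrp8, of which Lrp8, a lipoprotein receptor, went from 94.0% to 79.5% upstream beside 8 and 54 last-exon reads. Tpm1, the tropomyosin whose isoforms end in alternative exons, went from 33.4% (30.8% to 36.1%) to 51.1% (48.1% to 54.1%).

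Upstream antisense RNA (uaRNA), made by polymerases that leave the promoter in the opposite direction, took 0.534% and 0.663% of reads, then 2.08% at 3w. Over 417 genes with 20 such reads in both libraries together the median log2 ratio was 0.32, and 88 genes (21.1%) were higher and 26 (6.24%) lower. The antisense transcripts of Zc3h7a went from 10 to 207 reads, 22.7-fold higher (12.1 to 48.0), and to 1513 at 3w, with the gene's own reads at 144 and 150. Those of Rbm26 went from 27 to 114 and 705, 4.62-fold higher (3.02 to 7.32), and those of E2f4 from 14 to 73, 5.71-fold higher (3.20 to 11.0). In Ddx17 and Gm4980 antisense reads were highest at 2w, with 81 and 62, and had gone back to 24 and 20 at 3w. Decreases were led by Bmyc, from 76 to 18 antisense reads while the gene itself went from 603 to 261, and by Neo1, Fam19a5 and D18Ertd653e, of which Neo1, a netrin receptor, went from 51 to 16 with 738 and 609 reads of its own.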

How the data were processed

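Per the labels and the methods of the study, poly(A)+ RNA from testis was fragmented with RNase III, captured on a chimeric oligo of U and T, digested with RNase H, ligated and sequenced. The authors aligned reads to mm9 with Bowtie2 (version not given in the sources used here) and deposited counts of reads per pA and library, with each pA's gene and type. Only reads with untemplated T from the poly(A) tail were kept by the authors, and the assignment of a pA to a gene and type follows their annotation.

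From these counts, pAs listed under more than 1 gene were dropped (384 positions), and last-exon pAs were summed per gene and scaled to 1000000 reads of the column. Depth was 3831545 reads at 1w and 3497870 at 2w. Fold intervals were exact (Clopper-Pearson, conditional) and share intervals Wilson, both at 95%, in Python 3.11.15 with numpy 2.4.6, pandas 2.3.3 and scipy 1.17.1; TMM factors came from edgeR 4.0.16 in R 4.3.3. Scripts were tested on simulated data. Genes were named if they belonged to 1 of 25 lists (528 of 571 list genes were in the table), or were among the 20 highest and 20 lowest by the interval bound nearest to 1 with at least 100 reads, the 10 largest RED each way in the 3'UTR and 5 each way for CDS-APA, at 100 reads in each library (and 20 upstream reads for the latter), or the 5 largest uaRNA differences each way with at least 50 reads. The comparison and the lists were chosen with earlier results of these data known. Promoters came from RefSeq (GRCm38.p6), where 8855 of 11000 genes matched by symbol, and gene ends from GENCODE for mm9. Alternatives covered scaling, read minimums, added reads, and the pAs included. A few genes that met the naming rule are not reported here.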

Additional observations from a re-analysis of the deposited data

How the results depend on the processing

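Counts followed the read minimum. Without a minimum beyond 1 read 2289 genes were at least 2-fold higher and 1748 lower, and with 100 reads over both libraries 325 and 305. With 20 reads in each library 814 genes moved to the Prx-pA and 752 to the Dis-pA, and with 100 reads 339 and 309. CDS-APA gave 229 genes toward upstream pAs at 100 reads, and uaRNA 20 higher and 6 lower at 50 reads. Fewer or more genes enter by construction. TMM scaling gave 826 higher and 642 lower, all sense-strand pAs 844 and 679, and 1 RPM added 667 and 552. The share of higher genes among calls was 53.7% as reported and lay between 51.6% and 56.7% under the alternatives. Of 134 named genes that were at least 2-fold higher or lower and had reads at both ages, none changed direction under any alternative that kept it. As they were chosen at 2-fold or more, small changes of scaling could hardly reverse them. At least 2-fold remained 132 of the 134 with TMM scaling, 131 with all sense-strand pAs and 128 with 1 RPM added. Bhlhe40 turned to a RED of -2.09 when the pAs were chosen over 1w and 2w, since another pair of pAs was then compared. Lowering reads by the Prm1 and Tnp1 share and leaving out genes with a pA at 0 in 1w and 6w were chosen after seeing the data. With the former 1 spermatid gene was lower instead of 4. Prm1 and Tnp1 are among these 4 and set the share themselves, so nearly all of their reads were taken away by construction. No replicate could be left out with 1 library per week. No paired analysis was possible because each week has 1 library and the result comes from no test. Genes with under 20 reads were not assessed at this depth.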
